A study of Homo sapiens with 16 samples.

Results

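RNA-seq of HEK-293T cells depleted of the RNA-binding protein HNRNPH1 is described here, in 6 of the 16 samples of the series. They are the short-read libraries whose labels name this cell line: 3 carry the label siHNRNPH1, for an siRNA against HNRNPH1, and 3 the label siNegative, for a control siRNA. HEK-293T is an established line of human embryonic kidney origin that grows fast and is easily transfected. Cells of both groups were kept in DMEM with serum and an antibiotic against mycoplasma, received 20 nM siRNA in a lipid reagent, and were harvested for total RNA 48 h later. The groups differ only in the siRNA, and the labels call the 3 libraries of each biological replicates. The knockdown is transient and leaves residual HNRNPH1 mRNA. Whether siHNRNPH1 is a single sequence or a pool is not given in the sources used here. The other 10 samples, which are HT-1080 fibrosarcoma libraries and pooled long-read libraries, are used at most as a side view.

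HNRNPH1 belongs to the hnRNP H/F family of nuclear RNA-binding proteins. Its domains bind runs of guanosines in pre-mRNA, and depending on where these lie it promotes or represses the use of a splice site. The family also takes part in cleavage and polyadenylation. When such a protein is lost, a gene can change in its total RNA, in the mixture of its transcripts, or in both, and the libraries were therefore read at both levels.

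Each library held between 107745653 and 121026216 expected counts, which are read counts that RSEM divides among transcripts. Gene levels are given as counts per 1000000 counts of the library (CPM), which are not divided by transcript length and so compare libraries, not genes. Replicate 1 of siHNRNPH1 stood apart from its group. Its log2 CPM correlated with replicates 2 and 3 at a Pearson r of 0.965 and 0.962 across genes, against 0.999 between those replicates and within siNegative. The first principal component, with 69.3% of the variance, separated this library from the other 5. The level of HNRNPH1 was lowest in it, so it goes with its label. Results below are given with all 6 libraries and again without it.

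The markers set for the cell line were present. All 10 HEK-293T markers were high enough to be tested. Of these, NEFL and LHX1 do not tell this line from the other, since their means in HT-1080 controls, 109.6 and 13.4 CPM, were above those in HEK-293T controls, at 65.9, 69.0 and 65.8 CPM and 3.86, 4.22 and 3.45 CPM. Of 18 markers of fibroblasts or fibrosarcoma, the origin of the other line of the series, 8 lay under 0.1 CPM, and TNFAIP6 was at 0 in all 6 libraries. Of the 11 tested, only COL1A1, COL3A1 and LUM were higher in HEK-293T than in HT-1080 controls, so they do not mark the other line. Their siNegative values were 13.7, 13.9 and 12.6, 1.67, 2.13 and 1.94, and 1.68, 1.83 and 1.98 CPM. Their means in HT-1080 controls were 7.61, 0.0343 and 0 CPM. The sum of the 18 ran from 34.7 to 36.6 CPM with siNegative and stood at 42.8, 40.5 and 37.8 CPM with siHNRNPH1. COL1A1 held the largest part of this sum, with 22.2, 15.9 and 13.8 CPM in the siHNRNPH1 libraries. CD44, a defining surface protein of the other line with a mean of 3037 CPM there, stood at 1.66, 1.89 and 1.51 CPM in siNegative and 2.76, 2.72 and 2.70 CPM in siHNRNPH1 HEK-293T cells. This rise passed the test (log2 fold change 0.67, and 0.63 without replicate 1, with all libraries edgeR BH-adjusted p = 0.0403), and the level was far below that of the other line. PDGFRB, a growth factor receptor, was also called higher, from 0.306, 0.267 and 0.314 CPM to 0.715, 0.671 and 0.631 CPM (log2 fold change 1.16, and 1.08 without replicate 1, edgeR BH-adjusted p = 0.0206 with all libraries). MMP14, a matrix protease, was at 2.91, 2.84 and 2.45 CPM and 2.08, 1.499 and 1.26 CPM, and was called lower only without replicate 1 (log2 fold change -1.04). The part of such cells in the results was not tested.

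The target came first. HNRNPH1 (ENSG00000169045.17) stood at 1107, 1105 and 1121 CPM with siNegative and at 234, 376 and 394 CPM with siHNRNPH1. The lowest value belonged to replicate 1, and the groups did not overlap. The log2 fold change was -1.76 (SE 0.20, edgeR BH-adjusted p = 0.00939) with all libraries and -1.58 (6.94e-21) without replicate 1. HNRNPH2, the closest relative, was at 203, 208 and 203 CPM against 39.5, 65.5 and 65.4 CPM. Reads of these near-identical genes are divided by estimate, so the fall of HNRNPH2 is uncertain. HNRNPH3, a shorter relative, moved the other way, from 306, 318 and 307 CPM to 536, 741 and 771 CPM. Its lowest depleted library, replicate 1, was still above every control. The log2 fold changes of HNRNPH2 and HNRNPH3 were -1.88 and 1.11 (edgeR BH-adjusted p = 0.00875 and 0.0138), or -1.70 and 1.23 without replicate 1.

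With all 6 libraries, 1997 of 19966 genes passed the test (edgeR quasi-likelihood, BH-adjusted p under 0.05), which is 10.0% of the genes tested, 5.12% higher and 4.88% lower. Without replicate 1 of siHNRNPH1, 12557 of 20329 genes passed, or 61.8%, with 30.5% higher and 31.3% lower. In that fit 5.98% of genes were called with a log2 fold change of at least 1 and 4.64% with one of at most -1, so most of its calls were small changes. Of the 1997 genes, 1996 passed in both fits in the same direction, and the genes named below are among those unless stated. The fits without siNegative replicates 1, 2 and 3 called 20, 0 and 0 genes, with 3525, 3517 and 3486 genes at an unadjusted p under 0.05. Without siHNRNPH1 replicates 2 and 3 the counts were 245 and 639. All gene-level calls given here, that of HNRNPH1 included, are therefore lost when siNegative replicate 2 or 3 is left out.

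The genes that rose most were taken as the 12 whose smaller log2 fold change of the 2 fits was largest. They needed a mean of at least 5 CPM over all 6 libraries, so a gene could pass on the depleted libraries alone. Among the 12, only COL7A1 had a siNegative mean above 5 CPM. The genes that fell most could likewise pass on the controls. CYP2E1, a cytochrome P450 that oxidises ethanol, had 0.765, 0.603 and 0.992 CPM in the controls and 11.9, 8.70 and 8.25 CPM after depletion. All 3 depleted libraries stood several times above the controls, with a log2 fold change of 3.59 (SE 0.28, edgeR BH-adjusted p = 0.00562) and 3.37 without replicate 1. UNC13A, which primes synaptic vesicles for release, went from 1.75, 1.58 and 1.64 CPM to 12.5, 19.1 and 18.1 CPM. Here replicate 1 was the lowest of the depleted libraries, and the log2 fold change was 3.29 (SE 0.18, edgeR BH-adjusted p = 0.00335), or 3.43 without it. CNKSR1, a scaffold protein of RAS signalling, rose from 5.48, 4.93 and 4.37 CPM to 41.7, 24.05 and 22.8 CPM. Replicate 1 was the highest, and the log2 fold change of 2.57 became 2.19 without it (edgeR BH-adjusted p = 0.0100 and 1.23e-15).

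COL7A1, the collagen of anchoring fibrils, stood at 10.4, 9.62 and 10.2 CPM and at 44.5, 44.5 and 38.2 CPM. The depleted libraries, replicate 1 among them, lay close together, and its log2 fold change was 2.05 (SE 0.13) with all libraries and 1.98 without replicate 1. UCN2, which encodes the peptide hormone urocortin 2 and adjoins COL7A1 in the RefSeq gene order, went from 0.405, 0.539 and 0.449 CPM to 4.87, 4.21 and 4.24 CPM. For UCN2 the log2 fold change was 3.23 (edgeR BH-adjusted p = 0.00335), or 3.12 once replicate 1 was dropped. UCN2 lies under the level set for the 12 and was chosen as a neighbour after its values were seen. COL11A2, a cartilage collagen chain, went from 2.52, 1.72 and 1.99 CPM to 12.6, 12.8 and 11.6 CPM, and ECM1, a secreted matrix protein, from 2.73, 2.40 and 2.44 CPM to 17.1, 10.7 and 10.8 CPM. In both genes every depleted library was more than 3-fold above the highest control, and the log2 fold changes were 2.54 and 2.34, or 2.50 and 2.04 without replicate 1.

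The remaining genes of this group were SCART1, MTMR11, OVGP1, KCND1, APLN and NME1-NME2, with log2 fold changes between 1.77 and 3.44. APLN, which encodes the ligand apelin, stood at 2.48, 2.63 and 2.37 CPM and 8.07, 9.22 and 8.71 CPM. KCND1, a voltage-gated potassium channel, was at 3.38, 2.79 and 3.29 CPM and 11.6, 11.9 and 10.6 CPM. Both genes had narrow groups, and their log2 fold changes without replicate 1 were 1.79 and 1.78. NME1-NME2, the readthrough of a pair of nucleoside diphosphate kinase genes, stood at 3.33, 3.27 and 3.08 CPM and 68.2, 19.1 and 17.4 CPM. Replicate 1 set its size: the log2 fold change fell from 3.44 to 2.44 without it, and its reads overlap those of NME1 and NME2, which makes the gene's value uncertain.

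The largest decreases included 2 RNA-binding proteins. RBM3, a protein induced by mild cold, stood at 477, 480.3 and 498 CPM with siNegative and at 66.6, 79.6 and 83.9 CPM with siHNRNPH1. TAF15, a member of the FET family that binds RNA and RNA polymerase II, went from 419.8, 433 and 407 CPM to 97.9, 104 and 99.3 CPM. Neither gene's groups came near each other, and replicate 1 lay with replicates 2 and 3. The log2 fold changes were -2.69 and -2.09 with all libraries and -2.63 and -2.10 without replicate 1 (edgeR BH-adjusted p = 0.00258 and 0.00335 with all). CIRBP, the other cold-inducible RNA-binding protein, was not among the 12 and was looked up after these values were seen. It stood at 114, 116 and 116 CPM and 47.0, 34.3 and 32.6 CPM, a log2 fold change of -1.62 (edgeR BH-adjusted p = 0.0104) and -1.84 without replicate 1.

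NEAT1, the long noncoding RNA around which paraspeckles are built, fell from 241, 246 and 251 CPM to 21.4, 55.0 and 55.8 CPM. Replicate 1 was the lowest by more than 2-fold, and its log2 fold change of -2.52 (edgeR BH-adjusted p = 0.0162) was -2.21 without it. PAK2, a kinase activated by small GTPases, showed the same order of libraries, with 164, 169 and 168 CPM and 22.1, 44.4 and 45.4 CPM, and log2 fold changes of -2.20 and -1.95 without replicate 1. MRPL58, a peptidyl-tRNA hydrolase of the mitochondrial ribosome, showed the opposite order. It stood at 18.1, 17.97 and 18.4 CPM and 7.01, 3.12 and 3.13 CPM, so its log2 fold change grew from -2.05 to -2.60 without replicate 1.

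HSDL2, a peroxisomal dehydrogenase-like protein, went from 82.7, 82.6 and 80.0 CPM to 12.9, 15.4 and 17.6 CPM, and MOCS2, which makes the molybdenum cofactor, from 56.2, 58.1 and 57.6 CPM to 12.7, 14.3 and 15.4 CPM. SLC37A4, the glucose-6-phosphate transporter of the endoplasmic reticulum, was at 94.6, 94.7 and 98.9 CPM and 24.1, 22.0 and 22.8 CPM. These groups were tight and far apart in each case. TAF12, a subunit of the general transcription factor TFIID, went from 17.1, 17.0 and 17.7 CPM to 4.51, 3.90 and 4.22 CPM. The log2 fold changes of HSDL2, MOCS2, SLC37A4 and TAF12 were -2.45, -2.05, -2.09 and -2.06, and -2.37, -2.01, -2.16 and -2.15 without replicate 1. SLC35A5, ZDHHC11 and IGDCC3 completed the 12. Over both sets of 12, the edgeR BH-adjusted p ran from 0.00258 to 0.0284 with all libraries and was at most 4.66e-10 without replicate 1, and no gene's groups overlapped. These 24 were chosen for large changes called in both fits, so wide separation goes with the choice. The share of all tested genes without overlap was not computed. Of the 24, 10 kept their call without siNegative replicate 1, 20 without siHNRNPH1 replicate 2 and 23 without siHNRNPH1 replicate 3.

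**Figure D1:**
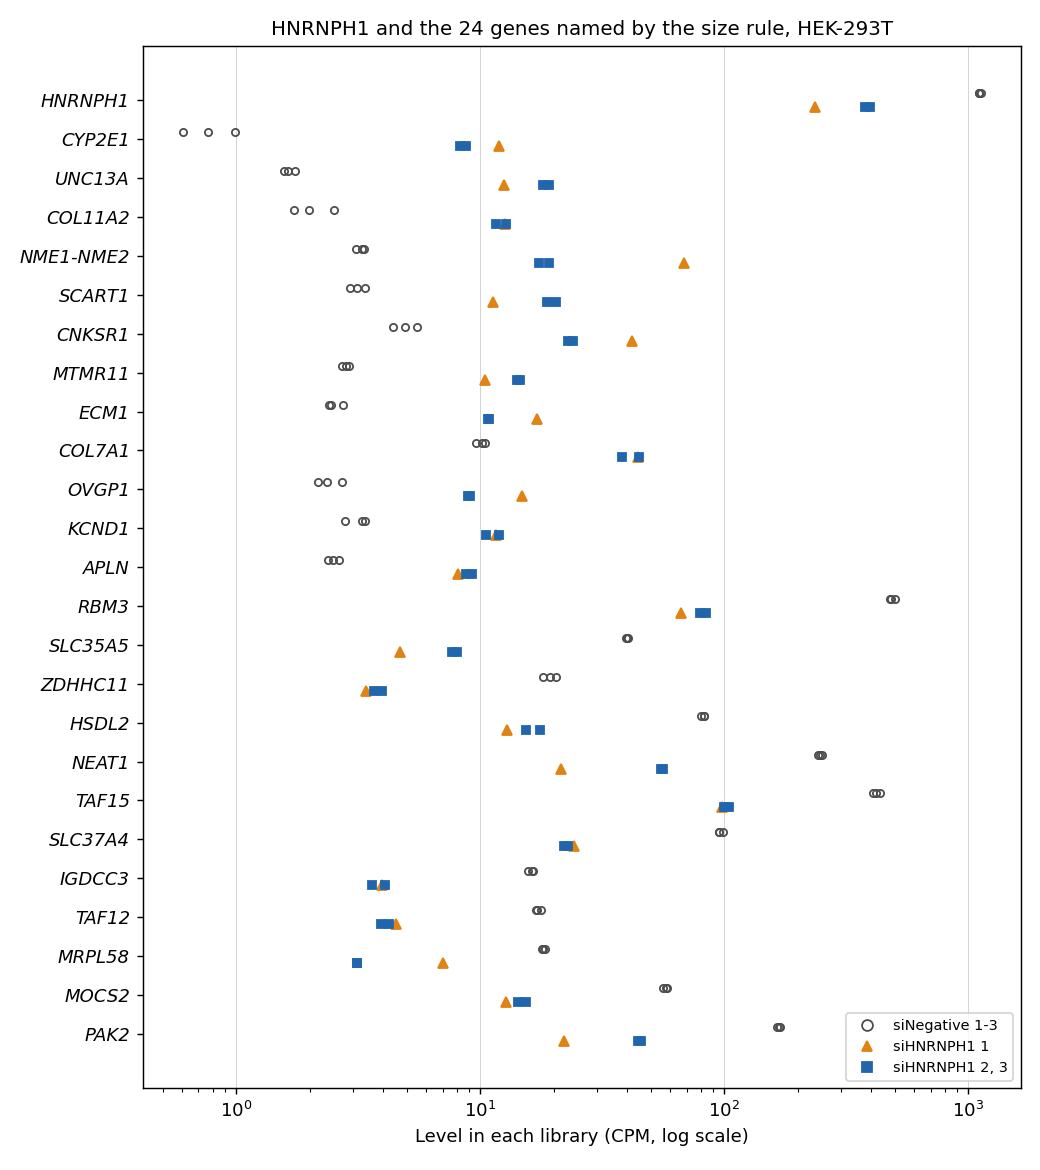
Level of HNRNPH1 and of the 24 genes named by size in each HEK-293T library, in CPM on a log axis. Open circles are siNegative replicates 1 to 3, triangles siHNRNPH1 replicate 1 and squares siHNRNPH1 replicates 2 and 3. In each of the 24 genes, chosen for large changes called in both fits, the depleted libraries lie to one side of all controls. Replicate 1 lies apart from its partners in several genes, furthest in NME1-NME2, NEAT1, PAK2 and MRPL58, and less far in others such as CNKSR1 and SCART1.

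Gene lists of pathways and families were then read from the same fits, each by the number of members called and the median log2 fold change, beside 10.0% called and a median of 0.02 over all genes with all libraries, and 61.8% and -0.0049 without replicate 1. The lists were drawn up with earlier results of these data known. Among 31 hnRNP genes, HNRNPH3 was the only one called higher and HNRNPH1 and HNRNPH2 the only ones called lower. Without replicate 1, 3 were higher and 22 lower, and the median stood at -0.17. The summed level of the family was 16687, 16976 and 16442 CPM with siNegative and 12879, 14729.8 and 14982 CPM with siHNRNPH1, so it was lower in each depleted library and lowest in replicate 1. HNRNPF, the other close relative, had 328, 329 and 324 CPM and 266, 322 and 316 CPM, with a log2 fold change of -0.15 (edgeR BH-adjusted p = 0.468) and -0.09 without replicate 1 (0.00565).

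Among 46 regulators of splicing outside this family, 5 were called higher (CELF3, RBFOX3, ESRP2, KHDRBS3 and NOVA2) and 6 lower (RBM3, TAF15, CIRBP, EWSR1, FUBP1 and RBM45), or 23.9%, and without replicate 1 the counts were 21 and 17. CELF3, an RNA-binding protein of neurons, went from 0.387, 0.224 and 0.264 CPM to 2.16, 1.70 and 1.88 CPM. RBFOX3, the neuronal nuclear antigen NeuN, went from 0.594, 0.775 and 0.711 CPM to 2.12, 1.51 and 1.36 CPM. Both were scarce, and both rose, with log2 fold changes of 2.69 and 1.24 (edgeR BH-adjusted p = 0.00719 and 0.0350) and of 2.56 and 0.99 without replicate 1. FUBP1, which binds single-stranded DNA and RNA, was lower at 77.6, 165 and 175 CPM against 367, 364 and 366 CPM, and was picked after its values were seen. Replicate 1 was less than 50% of its partners here, and the log2 fold change of -1.43 became -1.16 without it.

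Of 24 SR proteins and their kinases, CLK2 alone was called. This kinase, which phosphorylates SR proteins, went from 89.0, 83.6 and 87.2 CPM to 38.5, 39.7 and 38.5 CPM. The depleted libraries were nearly equal, and the log2 fold change was -1.18 (SE 0.11, edgeR BH-adjusted p = 0.00611), or -1.20 without replicate 1. Without that replicate, 3 of the 24 were higher and 16 lower. In the core spliceosome, 2 of 66 members passed: CRNKL1, of the complex that joins the activated spliceosome, had a log2 fold change of 0.48 (0.48 without replicate 1), and USP39, of the tri-snRNP, one of -0.55 (-0.62). Without replicate 1 the core counts were 10 higher and 45 lower, with a median of -0.16.

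Factors that act after splicing were read in 2 lists. In nonsense-mediated decay and the exon junction complex, 3 of 19 genes were lower, or 15.8%, and 6 were higher and 9 lower without replicate 1. NBAS was at 53.1, 55.9 and 55.3 CPM against 17.3, 26.0 and 27.1 CPM. SMG6, the endonuclease of the pathway, was at 64.5, 64.7 and 64.5 CPM against 38.6, 40.3 and 38.5 CPM. RBM8A, a core protein of the exon junction complex, was at 266, 276 and 272 CPM against 200.1, 174 and 173 CPM. The depleted libraries of SMG6 lay within 2 CPM of each other, and its log2 fold change was -0.75 (edgeR BH-adjusted p = 0.0151) and -0.77 without replicate 1. NBAS and RBM8A gave -1.26 and -0.60, and -1.10 and -0.70 without it. In the cleavage and polyadenylation list of 23 genes, PABPC4, a cytoplasmic poly(A)-binding protein, was the single call, and 12 were higher and 8 lower without replicate 1. PABPC4 rose from 231, 231 and 231 CPM to 455, 380.1 and 377 CPM, a log2 fold change of 0.79 (edgeR BH-adjusted p = 0.0265), or 0.66 without replicate 1.

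For components of translation, the median change turned with replicate 1. No cytosolic ribosomal protein gene of 79 passed with edgeR or with DESeq2, and 1 had an unadjusted edgeR p under 0.05. Their summed level was 60378, 59027 and 60312 CPM in the controls, and 111829, 54368 and 53354 CPM in the depleted libraries. Replicate 1 stood far above every control, and replicates 2 and 3 stood below every control. The median log2 fold change was 0.29 with replicate 1 and -0.21 without it, where 66 of 79 genes were lower and 2 higher. For 44 translation initiation factors, edgeR called 0 with all libraries (8 at an unadjusted p under 0.05, and 4 by DESeq2), and without replicate 1 it called 10 higher and 25 lower.

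Nuclear genes of the mitochondrion showed the same division of libraries. Nuclear subunits of the respiratory chain had 0 calls of 75 with edgeR, with 5 at an unadjusted p under 0.05 and 4 calls by DESeq2. Their sum was 8757, 8667 and 8773 CPM in controls and 13299.9, 7861 and 7811 CPM after depletion, again high in replicate 1 and low in the other 2. The median moved from 0.19 to -0.19 without replicate 1. The 13 protein-coding genes of the mitochondrial genome also had 0 edgeR calls (3 at an unadjusted p under 0.05, 3 by DESeq2), but their sum of 60422, 55260.5 and 55110.1 CPM was below the 63825, 62637 and 66425 CPM of the controls in every depleted library. Their median log2 fold change was -0.22, and -0.28 without replicate 1.

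Among 78 mitochondrial ribosomal proteins, 5 were lower and none higher with edgeR: MRPL42, MRPL50, MRPL58, MRPS16 and MRPS30. These are 6.41% of the list, beside 10.0% of all genes called and 4.88% called lower. MRPL42 went from 142, 136 and 142 CPM to 46.3, 56.5 and 59.3 CPM and MRPS16 from 122, 121.01 and 120.83 CPM to 59.8, 59.1 and 61.3 CPM. In these 2 genes replicate 1 lay near its group, whereas MRPL58 was less reduced in it, as given above. The log2 fold changes of MRPL42 and MRPS16 were -1.41 and -1.04, and -1.34 and -1.07 without it (edgeR BH-adjusted p = 0.00611 and 0.00793 with all). The list as a whole summed to 4584, 4548 and 4584 CPM in controls and 6174, 4001 and 3993 CPM after depletion, with replicate 1 above the controls and its partners below. The median turned from 0.17 to -0.22 without replicate 1, where 11 of the 78 were higher and 50 lower.

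**Figure D2:**
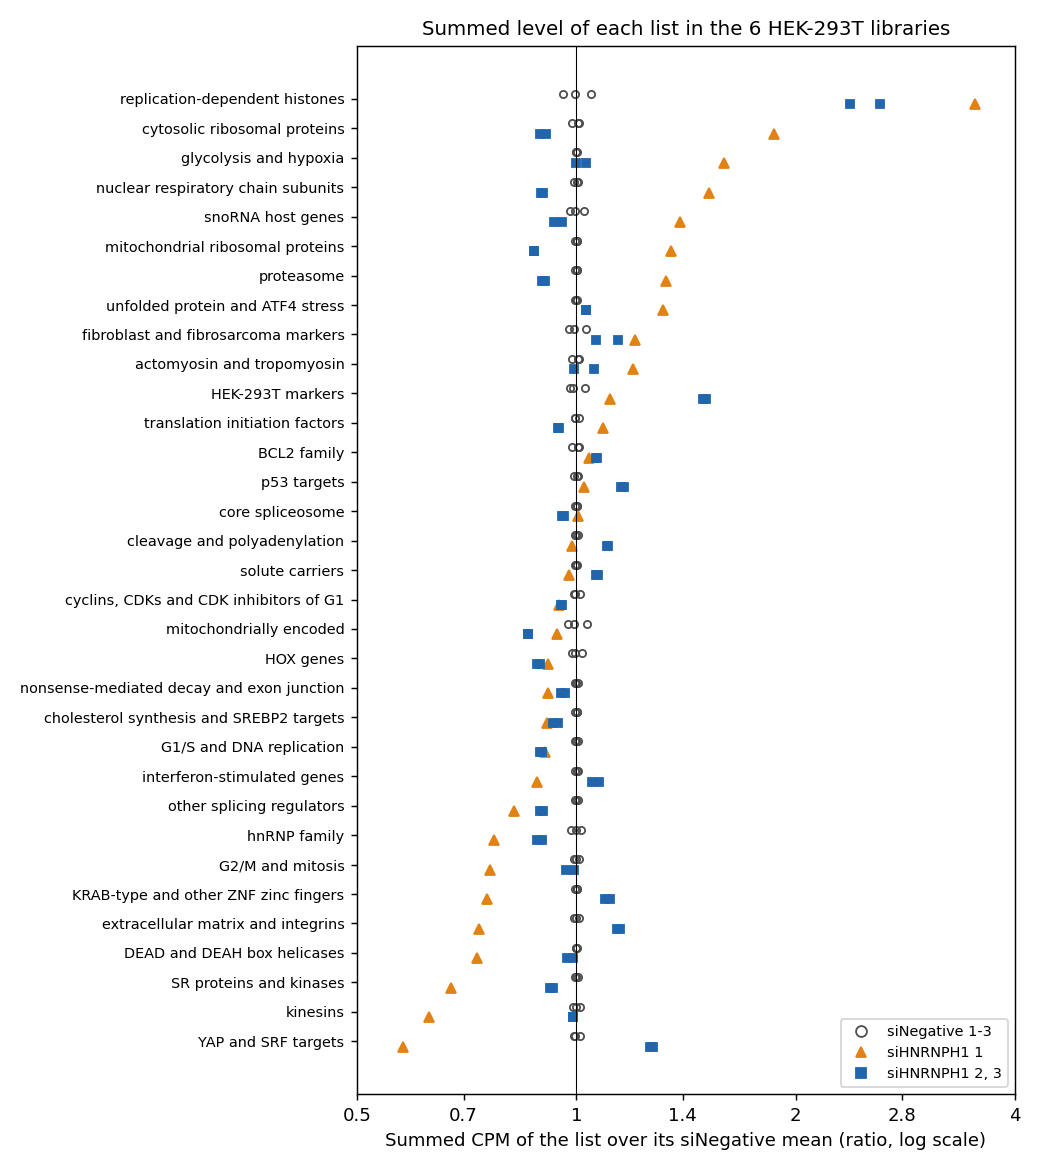
Summed CPM of each gene list in each HEK-293T library, divided by the mean of its siNegative libraries, on a log axis. Open circles are siNegative, triangles siHNRNPH1 replicate 1 and squares siHNRNPH1 replicates 2 and 3. Replication-dependent histones are above the controls in all 3 depleted libraries, at ratios of 2.38 to 3.53, whereas replicate 1 lies on the other side of the controls from replicates 2 and 3 for cytosolic ribosomal proteins, at 1.87 against 0.908 and 0.891.

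Genes of the cell cycle were read in 3 lists. In bulk RNA, fewer cells in a phase and less RNA per cell cannot be told apart. Of 53 genes of the G1/S transition and DNA replication, 6 were lower and none higher with edgeR: ORC6, CDC45, CDC6, LIG1, POLD3 and RRM2, a share of 11.3% beside the 10.0% of all genes. ORC6, a subunit of the origin recognition complex, went from 66.8, 64.9 and 65.3 CPM to 21.0, 24.5 and 25.9 CPM. CDC45, which activates the replicative helicase, went from 99.3, 99.5 and 102 CPM to 69.6, 48.5 and 48.5 CPM. ORC6 was nearly even over the depleted libraries, while CDC45 was less reduced in replicate 1. The log2 fold changes were -1.49 and -0.87, and -1.44 and -1.11 without replicate 1 (edgeR BH-adjusted p = 0.00532 and 0.0494 with all). Without it, 34 of the 53 were lower and 1 higher. In the G2/M list, 3 of 44 were lower, or 6.82%, and without replicate 1 it was 28, with 6 higher. TPX2, which activates the kinase AURKA on the spindle, went from 231, 235.16 and 226 CPM to 139.6, 128 and 130.4 CPM, a log2 fold change of -0.82 (edgeR BH-adjusted p = 0.0159) and -0.89 without replicate 1. HMMR and CENPA were the others, at -0.82 and -0.56, and -0.69 and -0.65 without replicate 1.

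Of 18 G1 cyclins and their regulators, 3 were called higher and 1 lower, or 22.2%. Without replicate 1 it was 4 higher and 8 lower, with a median of -0.14. CCND1, the cyclin D1 gene, went from 47.9, 49.7 and 48.4 CPM to 11.7, 18.6 and 17.9 CPM, a log2 fold change of -1.63 (SE 0.18, edgeR BH-adjusted p = 0.00917), or -1.47 without replicate 1. CCND2, which encodes cyclin D2, rose from 89.2, 94.0 and 92.3 CPM to 126, 136 and 138 CPM. CDKN1A, the p21 inhibitor of cyclin-dependent kinases, rose from 21.7, 21.0 and 21.3 CPM to 57.5, 42.7 and 41.4 CPM. MYC, a transcription factor that drives growth, rose from 52.4, 54.7 and 55.9 CPM to 146, 115 and 106 CPM. CCND2 had a log2 fold change of 0.51 (edgeR BH-adjusted p = 0.0379), or 0.52 without replicate 1. In CDKN1A and MYC replicate 1 was the highest library, and their log2 fold changes of 1.13 and 1.15 were 0.92 and 0.96 without it (edgeR BH-adjusted p = 0.0214 and 0.0189 with all). Among 30 targets of p53, CDKN1A and BTG2 were the calls, and without replicate 1 there were 18 higher and 6 lower, a median of 0.22. HEK-293T cells carry the large T antigen of SV40, which binds p53.

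Other pathway lists held between 0 and 4 calls each. In the BCL2 family, edgeR called 0 of 17 (4 at an unadjusted p under 0.05, 2 by DESeq2). In the actomyosin list it called 0 of 26 (3 and 1). In the list of unfolded protein and ATF4 stress genes, SLC7A5, an amino acid transporter, was higher and DNAJB9 and PSAT1 were lower, out of 36, with log2 fold changes of 0.63, -0.54 and -0.50, and 0.54, -0.47 and -0.44 without replicate 1. Of 34 genes of glycolysis and hypoxia, NDRG1 and PFKFB4 rose, by 0.97 and 1.09 on the log2 scale, and ENO2 and P4HA2 fell, at -0.91 and -0.74. Of 23 genes of cholesterol synthesis and SREBP2 targets, IDI1 fell, at -0.68. Without replicate 1 the last list had 3 higher and 14 lower. The interferon-stimulated list of 30 held ISG20, higher at 1.92, and IFIT1, lower at -0.83. Without replicate 1 NDRG1, PFKFB4, ENO2, P4HA2, IDI1, ISG20 and IFIT1 stood at 1.02, 1.00, -0.87, -0.74, -0.69, 1.78 and -0.88 in that order. FOSB rose and CCN2 fell among 17 targets of YAP and SRF, at 0.92 and -1.02 (0.89 and -1.03 without replicate 1). PSMD12 fell among 46 proteasome genes, at -0.48 (-0.48), and KIF1A, an axonal motor, among 41 kinesins, at -0.94 (-0.82). Of 26 host genes of small nucleolar RNAs, 15.4% were called beside 10.0% of all genes. SNHG28, scarce in all libraries, rose at 3.97 (3.91), and SNHG3, SNHG4 and SNHG26 fell at -0.63, -0.79 and -0.78 (-0.73, -0.63 and -0.71). Without replicate 1 this list had 3 higher and 13 lower, and its median turned from 0.07 to -0.22.

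Structural genes moved in both directions. Of 37 genes of the extracellular matrix and integrins, COL5A1, HSPG2 and TNC rose, at 0.76, 0.77 and 1.03 on the log2 scale, and LAMA5 and NID2 fell, at -0.63 and -0.88. Without replicate 1 the values were 0.82, 0.87, 1.21, -0.62 and -0.71, and 15 genes were higher and 10 lower. The neurofilament genes, which HEK-293T cells express as neurons do, all rose. NEFM was at 252, 270.3 and 252 CPM against 398, 490.2 and 482 CPM and INA at 18.8, 19.1 and 18.4 CPM against 30.7, 35.5 and 34.6 CPM. NEFL was at 65.9, 69.0 and 65.8 CPM against 112, 97.9 and 96.4 CPM. No group overlapped, and the log2 fold changes of NEFM, INA and NEFL were 0.80, 0.81 and 0.59, and 0.86, 0.85 and 0.48 without replicate 1 (edgeR BH-adjusted p = 0.0176, 0.0113 and 0.0469 with all). NEFH, at 0.288, 0.327 and 0.231 CPM and 0.956, 0.646 and 0.631 CPM, had a log2 fold change of 1.38 (1.12 without replicate 1). Of the HEK-293T markers, these 4 of 10 were called, and without replicate 1 it was 8 of 10, all higher. Others of the list were below the controls in replicate 1 alone. LIN28B, which blocks let-7 maturation, was at 175, 179.8 and 179 CPM in controls and 65.7, 197 and 203 CPM after depletion. The transcription factor genes EYA1 and SALL1 were at 6.74, 6.88 and 7.09 CPM and 42.4, 44.3 and 44.6 CPM in controls, and at 3.63, 6.97 and 7.16 CPM and 31.2, 51.7 and 48.2 CPM.

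Large gene families held few or many calls beside the background of 10.0%. Of 473 ZNF zinc finger genes, 13 were higher and 4 lower, or 3.59%, and without replicate 1 it was 221 and 97 of 475. ZNF425 went from 2.25, 2.36 and 2.35 CPM to 9.95, 8.30 and 6.77 CPM, a log2 fold change of 1.83 and 1.64 without replicate 1. Of 277 solute carriers, 20 were higher and 13 lower, or 11.9%, and 117 and 84 of 282 without replicate 1. SLC43A3, a nucleobase transporter, was at 0.108, 0.198 and 0.116 CPM in the controls and 2.11, 1.43 and 0.959 CPM after depletion, a log2 fold change of 3.39 and 3.02 without replicate 1. Of 51 DEAD and DEAH box helicases, 2 were higher and 2 lower, or 7.84%, and 18 and 21 without replicate 1. DDX25 and DHX37 rose, at 2.31 and 0.53 on the log2 scale, and DDX19A fell, at -0.87 (2.16, 0.46 and -0.86 without replicate 1). DDX60, an antiviral sensor cofactor, fell from 3.61, 3.73 and 4.05 CPM to 0.343, 1.00 and 0.807 CPM, a log2 fold change of -2.44 (edgeR BH-adjusted p = 0.0176) and -2.12 without replicate 1. The HOX genes, which set position along the body axis, had 4 higher and 4 lower of 38, and 7 and 19 without replicate 1. HOXB9 fell from 99.8, 99.3 and 97.0 CPM to 42.9, 43.4 and 40.4 CPM and HOXA7 rose from 8.64, 8.86 and 8.23 CPM to 14.1, 14.1 and 13.9 CPM. The depleted libraries lay close together in both genes, with log2 fold changes of -1.25 and 0.69, and -1.29 and 0.65 without replicate 1.

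**Figure D3:**
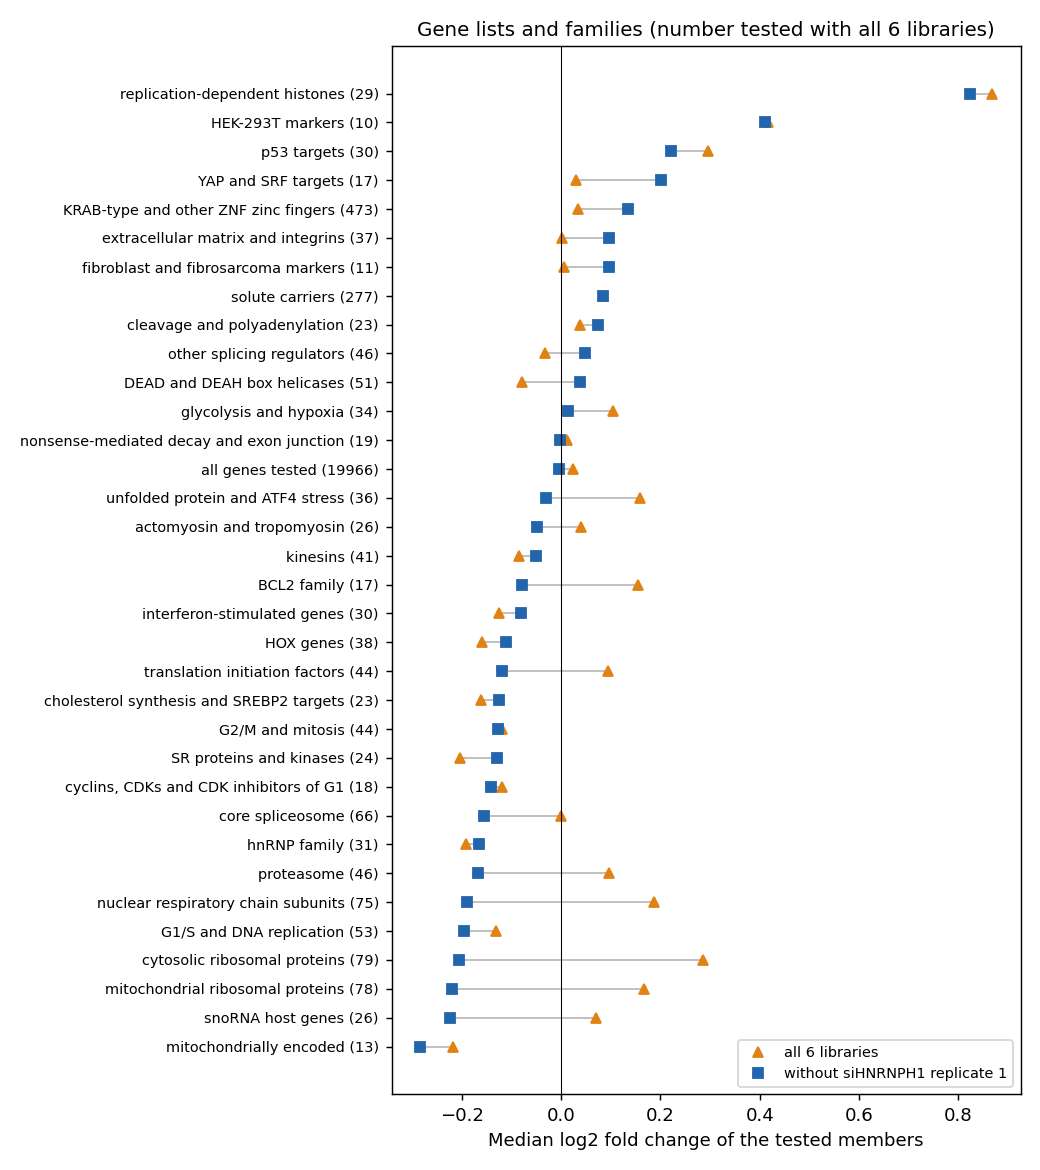
Median log2 fold change of the tested members of each gene list, siHNRNPH1 over siNegative, with all 6 libraries (triangles) and without siHNRNPH1 replicate 1 (squares). Replication-dependent histones have the highest median in both fits, 0.87 and 0.82, and cytosolic ribosomal proteins cross from 0.29 to -0.21.

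Replication-dependent histone genes, whose mRNAs end in a stem-loop in place of a poly(A) tail and are made in S phase, had the highest share of calls of the lists of more than 10 tested genes with all libraries, but not without replicate 1. The filter on low counts kept 29 of the 66 genes listed, and a gene could pass it on the depleted libraries alone. Of these 29 tested members, 10 were called higher and none lower with edgeR, or 34.5%, and the median log2 fold change was 0.87. Without replicate 1, 15 of 30 were higher and 2 lower, or 56.7% beside 61.8% of all genes, with a median of 0.82. The log2 fold changes of that fit ran from -7.81 to 2.02, and the 2 genes called lower were both at -1 or below. Their summed level went from 32.3, 30.8 and 29.6 CPM to 109, 80.8 and 73.5 CPM, and replicate 1 was the highest. Whether the libraries selected poly(A) RNA is not given in the sources used here. Near-identical copies share reads, so values of single genes are uncertain.

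H2BC12 went from 11.4, 11.3 and 10.0 CPM to 50.8, 36.0 and 31.3 CPM. H2AC6 went from 1.03, 0.706 and 0.917 CPM to 4.06, 3.34 and 3.14 CPM and H2BC15 from 0.927, 0.913 and 0.719 CPM to 3.9998, 3.96 and 3.24 CPM. In none did the groups overlap. The log2 fold changes of H2BC12, H2AC6 and H2BC15 were 1.84, 1.97 and 2.11 (edgeR BH-adjusted p = 0.0112, 0.00917 and 0.00604), and 1.57, 1.82 and 2.02 without replicate 1. H2BC12 was chosen for its level after the values were seen, and this gene alone made up a large part of the summed level of the list. The other genes called were H2BC5, H2BC11, H2BC13, H2BC21, H3C6, H3C10 and H4C8.

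The promoters of H2B genes, and of H2A genes that face them, are known for an octamer that binds the factor POU2F1, and their windows are shown for the called genes that held it. Of 17 tested H2A and H2B genes, 7 were called higher, 6 of them among 10 H2B genes. The motif ATTTGCAT was searched on both strands in the RefSeq promoters of GRCh38.p14, from 250 bases before to 50 bases after each gene's start. It was present in 1.77% of the 35116 promoters. Of 27 tested histone genes with a promoter in that table, 11 held it: 4 of the 10 called higher and 7 of the 17 not called. The windows of those 4 genes follow, 5′ to 3′ on the gene's strand, with the motif or its reverse complement in capitals. They lie at chr6:26124031-26124060 on the plus strand for H2AC6, and on the minus strand at chr6:27132824-27132853 for H2BC11, chr6:27146886-27146915 for H2BC12 and chr1:149886710-149886739 for H2BC21.
H2AC6: tgggcagagctATGCAAATgaggtatgaaa
H2BC11: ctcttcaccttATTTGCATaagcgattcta
H2BC12: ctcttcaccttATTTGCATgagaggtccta
H2BC21: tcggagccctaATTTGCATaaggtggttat
In the H2B genes the motif ended 38 or 39 bases before the start, and in H2AC6 122 bases before it and in the opposite orientation. A match in these letters is no evidence that a factor binds there.

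Transcript usage was read next, as the percent of a gene's expected counts that a transcript held in each library. Of 32302 transcripts tested, 902 passed (limma on the arcsine square root of the share, BH-adjusted p under 0.05), which is 2.79%: 454 gained and 448 lost share. They lay in 662 of 10841 genes, or 6.11%. Without replicate 1, 5332 of 31770 transcripts passed, or 16.8%. Both fits called 875 transcripts in 645 genes, and 344 of these transcripts, in 259 genes, shifted by more than 20 points. Of the 32302 transcripts these are 2.71%, and of the genes 5.95%. In gene level, 560 of the 645 were not called with all libraries, and 85 were called in both fits, beside 10.0% of all genes tested in level. Without replicate 1, 61.8% of all genes were called in level, and the number among the 645 was not computed. Each of the other 5 fits that left out 1 library called at most 1 transcript, with 3739 to 5220 at an unadjusted p under 0.05. Usage calls thus hold with all 6 libraries and without siHNRNPH1 replicate 1, and all but 1 are lost without any 1 of the other libraries.

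The switches named are the 12 whose smaller shift of the 2 fits was largest. Only transcripts called in both fits, with groups that did not overlap, were eligible. Each is shown with the tested transcript of that gene that moved most the other way. EIF4H, a cofactor of the helicase EIF4A in translation initiation, exchanged its main transcript. ENST00000353999.6 held 63.2%, 63.6% and 61.8% of its counts with siNegative and 10.2%, 10.5% and 8.82% with siHNRNPH1. ENST00000265753.13 rose in its place, from 29.1%, 28.6% and 30.5% to 70.4%, 82.5% and 84.0%. EIF4H as a gene had a log2 fold change of -0.01 (edgeR BH-adjusted p = 0.962), and -0.04 (0.271) without replicate 1. The first transcript's difference was -53.1 points with all libraries and -53.2 without replicate 1 (limma BH-adjusted p = 0.00706 and 0.00319).

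The same form of exchange, one annotated transcript for another, was seen in genes of other functions. In MYL6, the essential light chain of nonmuscle and smooth muscle myosin, ENST00000547649.5 fell from 68.0%, 67.2% and 66.9% to 20.1%, 19.2% and 18.04%, and ENST00000550697.6 rose from 19.1%, 19.5% and 19.5% to 65.0%, 63.8% and 64.8%. In SYK, a tyrosine kinase of immune receptors, ENST00000375747.5 went from 63.2%, 66.1% and 69.3% to 10.1%, 13.8% and 21.6% and ENST00000375754.9 from 36.6%, 33.9% and 27.7% to 78.9%, 83.2% and 78.3%. The pairs together made up most of each gene's counts, and replicate 1 lay with its group. In ZCCHC17, a zinc knuckle protein, the share that rose was the minor one: ENST00000373714.5 went from 5.09%, 6.04% and 4.27% to 53.9%, 56.3% and 52.7%, while ENST00000344147.10 went from 81.7%, 80.5% and 80.9% to 40.1%, 29.2% and 36.6%. The limma BH-adjusted p of these 6 transcripts ran from 0.00706 to 0.0138 with all libraries, and the shifts of the named ones were -48.8, -48.5 and 49.4 points without replicate 1.

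The largest of the 12 shifts was in TPCN2, a cation channel of lysosomes. ENST00000294309.8 held 73.6%, 77.0% and 75.2% with siNegative and 4.98%, 13.8% and 7.92% with siHNRNPH1, and ENST00000442692.2 went from 19.4%, 15.3% and 16.2% to 60.4%, 61.5% and 65.8%. A transcript with most of the counts became a minor one in every depleted library. TPCN2 also fell in level, by 1.06 on the log2 scale (edgeR BH-adjusted p = 0.00939), or 0.99 without replicate 1. NCSTN, a subunit of the gamma-secretase complex, lost share and level at once: ENST00000294785.10 went from 60.3%, 62.4% and 65.8% to 12.7%, 9.70% and 10.2%, and the gene's log2 fold change was -1.50 (edgeR BH-adjusted p = 0.00782) and -1.37 without replicate 1. In NCSTN the largest gain of a tested transcript was much smaller, that of ENST00000491390.2, from 2.69%, 2.36% and 2.40% to 12.8%, 11.3% and 11.7%. ARFGAP2, a GTPase-activating protein of the Golgi, was the third of the 12 genes with a called level with all libraries. Without replicate 1, each of the 12 except EIF4H was called in level, beside 61.8% of all genes.

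Metabolic and ciliary enzymes were among the rest. In UGP2, which makes UDP-glucose, ENST00000394417.7 fell from 69.7%, 74.0% and 77.1% to 14.4%, 20.2% and 27.1%. Its counterpart ENST00000445915.6 stood at 8.61%, 4.75% and 3.51% and 62.4%, 36.8% and 33.5%, with replicate 1 well above its partners, and did not pass (limma BH-adjusted p = 0.0547) until that replicate was left out (0.0100). In INPP5E, a phosphoinositide phosphatase of the primary cilium, ENST00000371712.4 fell from 56.1%, 60.9% and 67.8% to 18.9%, 10.9% and 14.5% and ENST00000676019.1 rose from 24.2%, 17.99% and 12.4% to 70.9%, 62.8% and 58.7%. The groups were further apart than they were wide. In DGCR6L, ENST00000248879.8 went from 87.0%, 88.8% and 84.7% to 35.7%, 35.5% and 35.4%, the most even group of depleted libraries of the 12. In UBXN11, ENST00000494942.5 went from 15.0%, 12.7% and 11.4% to 58.7%, 60.8% and 61.1%, and ENST00000472155.5 from 30.1%, 39.8% and 43.6% to 0%, 5.25% and 0%. BUD23, an rRNA methyltransferase, completed the 12. Of the counterparts, 11 of 12 passed with all libraries. The 12 named shifts were between 46.8 and 66.4 points in size, with a limma BH-adjusted p of at most 0.0159, and at most 0.00746 without replicate 1. In the fits without 1 of the other libraries the p lay between 0.0535 and 0.125, with shifts of 43.7 to 68.8 points.

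**Figure D4:**
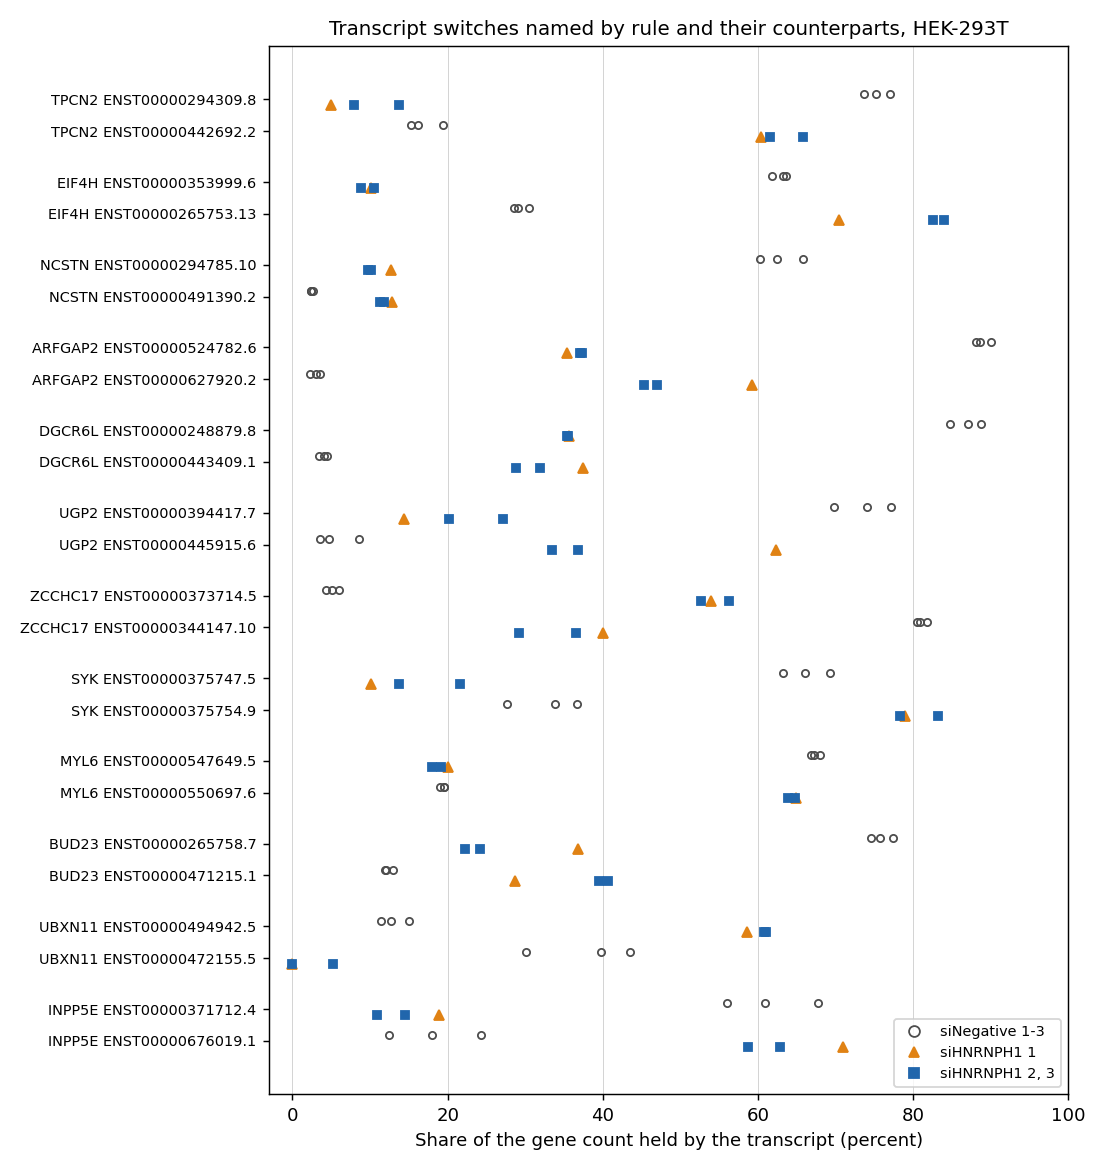
Share of the gene's expected counts held by the 12 named transcripts, each above its counterpart, in percent, for each HEK-293T library. Open circles are siNegative, triangles siHNRNPH1 replicate 1 and squares siHNRNPH1 replicates 2 and 3. Controls and depleted libraries are separated in all 12 named transcripts, which the rule for naming them required. In TPCN2 the leading transcript changes from 75.3% on average to between 4.98% and 13.8%.

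Within the gene lists, genes with a switch were counted in the same way, beside 6.11% of all genes. The hnRNP list had 4 of 25 genes, the cleavage and polyadenylation list 4 of 20, the G2/M list 5 of 32, the BCL2 list 3 of 12 and the actomyosin list 3 of 20. Other lists lay below the share of all genes: nonsense-mediated decay had 0 of 15, DEAD and DEAH box helicases 0 of 43, the core spliceosome 1 of 51, cytosolic ribosomal proteins 1 of 58 and ZNF genes 9 of 348. Without replicate 1 the counts were 12 of the 25 hnRNP genes, 9 of the 20 cleavage and polyadenylation genes, 11 of the 32 G2/M genes, 5 of the 12 BCL2 genes and 8 of the 20 actomyosin genes. The first counts are small, and each gene of the first 5 lists was also called without replicate 1, where 3216 of the 10841 genes were. Those described next were picked after their values were seen. HNRNPAB, a relative of HNRNPA1, lost ENST00000358344.8, from 79.0%, 80.1% and 80.0% to 55.9%, 57.6% and 55.5%, and gained ENST00000355836.9, from 16.2%, 15.8% and 16.0% to 39.6%, 37.3% and 39.7%. HNRNPDL gained ENST00000621267.4, from 9.25%, 8.45% and 7.98% to 21.9%, 22.6% and 22.8%. Groups were narrow and apart in both genes, with limma BH-adjusted p of 0.0145, 0.0138 and 0.0212 in that order, and 0.00436, 0.00412 and 0.00578 without replicate 1. PCBP4 and HNRNPA1 were the other hnRNP genes.

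In the 3′ end list, SSU72, a phosphatase of the RNA polymerase II tail, shifted to its leading transcript. ENST00000291386.4 held 65.8%, 66.0% and 64.9% with siNegative and 91.1%, 89.4% and 90.1% with siHNRNPH1, and ENST00000359060.5 fell from 33.0%, 32.7% and 33.6% to 5.56%, 9.19% and 8.99% (limma BH-adjusted p = 0.0107 and 0.0138, and 0.00346 and 0.00319 without replicate 1). CPSF7, FIP1L1 and PABPC4 were the others. RBM3, whose level had fallen, also changed in makeup: ENST00000376755.1 went from 26.4%, 26.96% and 27.3% to 2.60%, 4.29% and 4.97% (limma BH-adjusted p = 0.0110, and 0.00319 without replicate 1). CLK2 gained ENST00000476983.5, from 21.4%, 25.2% and 24.3% to 50.7%, 42.7% and 42.6% (limma BH-adjusted p = 0.0356, and 0.00886 without it).

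Switches were also called in regulators of cell death and division. BCL2L2, an anti-apoptotic BCL2 relative, lost ENST00000250405.10, from 83.0%, 85.8% and 79.8% to 52.2%, 49.0% and 48.7%. BCL2L12 lost ENST00000246784.8, from 70.0%, 76.0% and 74.7% to 37.8%, 41.6% and 37.5%. BMF, a pro-apoptotic member, lost ENST00000354670.9, from 20.9%, 13.4% and 20.0% to 0%, 0.792% and 0%. In each the depleted libraries, replicate 1 included, lay together below the controls (limma BH-adjusted p = 0.0133, 0.0132 and 0.0176 in that order, and 0.00669, 0.00750 and 0.0130 without replicate 1). Among mitotic genes, BIRC5, which encodes survivin, lost ENST00000350051.8, from 84.1%, 84.4% and 85.4% to 62.4%, 62.6% and 62.6%, and gained ENST00000374948.6, from 8.10%, 8.55% and 7.94% to 22.6%, 23.8% and 22.2%. NUF2, of the kinetochore, gained ENST00000271452.8, from 43.3%, 40.9% and 35.5% to 72.6%, 86.1% and 77.4%. The survivin values were the same to within 1 point over the depleted libraries for the transcript that fell. For these 3 the limma BH-adjusted p was 0.0138, 0.0194 and 0.0259, and 0.00393, 0.00536 and 0.0108 without replicate 1. None of these 5 genes was called in level with all libraries. Without replicate 1, BCL2L2, BCL2L12, BMF and NUF2 were, at log2 fold changes of -0.28, -0.54, -0.21 and -0.30 (edgeR BH-adjusted p = 7.93e-07, 1.13e-09, 0.00492 and 5.32e-07), and BIRC5 was not (-0.02, 0.540).

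HT-1080 cells, given siRNAs of the same labels and compared with their own controls, offer a side view. Of 843 of the 875 switches that had a value there, 734 moved in the same direction in HT-1080 means. The 875 lie in 645 genes, so switches of the same gene are not separate agreements. The matching share over all tested transcripts was not computed. EIF4H ENST00000353999.6 went from 65.2% to 26.7% there, and ZCCHC17 ENST00000373714.5 from 6.16% to 53.6%. NCSTN ENST00000294785.10, which fell in HEK-293T, stood at 76.9% and 72.8%. Of the 12 named switches, only INPP5E ENST00000371712.4 moved the other way there, from 66.4% to 76.5%, and that of SYK had no value after depletion. In gene level, NEAT1 had 808 and 764 CPM, and MYC 42.4 and 21.2 CPM, and both were picked after their values were seen. Of the 12 genes per direction named by size, the means there moved as in HEK-293T with 6 exceptions. These were UNC13A, MTMR11, ECM1, APLN, ZDHHC11 and IGDCC3. RBM3, for one, had 238 and 54.5 CPM. These values (means of n = 3) stand beside those of HEK-293T, and differences between the lines were not tested here.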

How the data were processed

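Total RNA of HEK-293T cells was sequenced as short reads in 3 siNegative and 3 siHNRNPH1 libraries, grouped by the labels' treatment. The authors deposited transcript-level expected counts, made with RSEM on GRCh38.p13 per the submitters' processing notes and not normalized. The RSEM version, strandedness and library kit are not given in the sources used here. For gene levels, the transcripts of each gene were added up and rounded to whole counts, then tested with edgeR 4.0.16 (filterByExpr, TMM, robust quasi-likelihood, Benjamini-Hochberg adjustment, threshold 0.05) in R 4.3.3. Usage is a transcript's percent of its gene's counts, for genes with a mean of at least 100 counts and transcripts with a mean share of 5 to 95%, tested with limma 3.58.1 on the arcsine square root. Alternatives were other scaling, no filter, DESeq2 1.42.0, diffSplice, a logit, other minimums, a replicate block and each library left out. Both procedures were tried on simulated data in which 200 genes changed, by 3-fold in level or by 30 points in share. With all 6 libraries, the level fit recovered 47.5% with 1 false call of 96, and the usage fit 63% with 11 of 137. Without siHNRNPH1 replicate 1, these were 92% with 22 of 206, and 83% with 20 of 186. Except in the first of these fits, the share of false calls was above the threshold of 0.05. The simulated data held the spread of each gene but no library that deviates as a whole, as siHNRNPH1 replicate 1 does. The rates with all 6 libraries may therefore differ in the real data. The members, lists and rules were chosen with earlier results of these data known. Text names HNRNPH1 and relatives, 12 genes per direction and 12 switches by size, as described with them, and up to 2 members per list and direction (all where at most 5 were called). Genes outside this are said to be chosen after their values were seen, or are only listed. The p-values measure spread between cultures of 1 line.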

Additional observations from a re-analysis of the deposited data

How the results depend on the processing

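The count of 1997 changed genes was 1995 with RLE size factors and 2068 with library size alone, 1302 with no filter on low counts and 3982 with DESeq2. With library size alone 57.4% of the calls were higher, against 51.2%. Leaving out 1 library gave between 0 and 12557 genes, the highest without siHNRNPH1 replicate 1 and 0 without siNegative replicate 2 or 3. The HNRNPH1 log2 fold change in HEK-293T ranged from -1.58 to -1.89 in these fits, and its call was lost without any 1 siNegative library and without siHNRNPH1 replicate 2 (edgeR BH-adjusted p = 0.0514 to 0.0760). The 902 transcripts with changed usage became 720 on the logit scale (610 of the 902 among them), 655 at a minimum share of 10% (all 655), 1156 at a minimum gene count of 500 (811) and 1148 with diffSplice (514), and between 0 and 5332 when 1 library was left out. With the replicate number as a block, edgeR called 0 genes (4169 at an unadjusted p under 0.05), limma called 0 transcripts (4348), and the HNRNPH1 log2 fold change in HEK-293T was -1.79 (edgeR BH-adjusted p = 0.0665). Deviations of same-numbered libraries from their group means correlated at 0.0871, 0.0981 and 0.0232. With siHNRNPH1 replicate 1 so far from its partners, this cannot show whether the numbers pair the samples. No named gene or switch reversed under these alternatives, but calls were lost. Of the 95 named genes called, 93 were called with RLE size factors, 90 with library size alone (lost: DNAJB9, PSAT1, PSMD12, NID2 and SNHG4), 72 with no filter and 95 with DESeq2. Those lost with no filter include CRNKL1, USP39, RBM8A, PABPC4, IDI1, SLC7A5, CENPA, HMMR, CDC45, CCND2, HSPG2, LAMA5, TNC, NEFL, NEFM, CD44 and DHX37. Of the 12 switches, that of UBXN11 was not called with diffSplice (limma BH-adjusted p = 0.113).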
